A study of Zea mays with 192 samples.

Results

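The 100 gene models described here are the most abundant ones that nearly every maize leaf protoplast of the series contained. They were chosen by level and detection: 169 of 41075 gene models had at least 1 UMI (unique molecular identifier, a tag that marks 1 captured RNA molecule) in at least 90% of the cells of each of 2 pools. From these, 5 were left out by name (Hsp70, hsp70-4, hsp18f, hsp22 and opr2), and the 100 with the highest mean level over all cells were kept. Level and detection therefore chose the members, and their abundance is a description, not a finding. Near the limit, hsp18c (GRMZM2G034157), GRMZM2G150367 and GRMZM2G029087 had mean levels of 791, 788 and 740 TPM over all cells and held places 98 to 100. The next models, GRMZM5G845024, GRMZM2G323888 and GRMZM2G100898, had 725, 724 and 719 TPM.

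The cells were single protoplasts, leaf cells freed of their wall, from the inbred line B73. More than 10 etiolated seedlings were used per isolation. They had been kept in the dark at 25 °C, and leaves were taken 10 to 12 days after germination. Of these protoplasts, 96 had received a pool of pre-meiotic TFs (transcription factors; the pre-meiotic pool) and the other 96 a pool of bHLHs, basic helix-loop-helix factors. No untransfected cell was analysed, the factors present in a given cell are not listed in the labels, and both groups share the line, tissue and protoplast treatment. The pre-meiotic pool had 3029855 UMIs, from 953 to 88243 per cell, and the bHLH pool had 3274116, from 4699 to 148894. Of the cells with fewer than 2000 detected genes, 22 were in the pre-meiotic pool and 2 in the bHLH pool. Separate transfections are not named in the labels. Each pool is therefore 1 sample, differences between pools were not replicated, and intervals cover counting error only. Markers of leaf cell types matched few models and none was a member. The 3 mesophyll models together had a median of 85.3 TPM per cell in the pre-meiotic pool and 71.4 in the bHLH pool. The 2 epidermis models had medians of 0 and 18.8 TPM. Bundle sheath, vascular and light harvesting models had medians of 0 in both pools. The anther marker models were at 0 in every pre-meiotic cell, and each had a UMI in 1 bHLH cell. Which cell types of the leaf the protoplasts came from is thus shown only weakly by these markers.

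In a cell's messenger RNA, a small number of transcripts usually takes a large part of the molecules. Among plant genes that are often abundant, glutathione S-transferases couple toxic compounds to glutathione, ubiquitin genes encode the tag that marks proteins for degradation, and heat shock proteins keep other proteins folded. Glutathione S-transferase and small heat shock genes are well known for responding to chemical stress and to heat.

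The models with a known name were a minority of the members. A reference table of maize genes listed 26 of the 100 members, of which 13 had an informative name. The table listed 37 of the 69 other widely detected models and 1180 of the 1775 eligible ones, meaning models with a UMI in at least 25% of cells and a mean of 50 TPM or more in at least 1 pool. The higher the place, the fewer were listed: 4 of the first 25 members, then 5, 7 and 10 of the following sets of 25. No role is given here to the 74 members outside the table, which include the 12 most abundant.

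Of the named members, 4 belonged to a list of redox and detoxification genes: the glutathione S-transferase genes gst5, gst2 and gst7, and trh2, an h-type thioredoxin gene. The ubiquitin list gave 3, MUB3, MUB6 and MUB14. The heat shock list gave 2, hsp101, whose product pulls apart protein aggregates, and the small heat shock gene hsp18c. The wound and defence list gave opr1, an oxophytodienoate reductase gene, and MPI, a proteinase inhibitor gene. RPL10, of the large ribosomal subunit, was the sole member of the translation list, and grp1, a glycine-rich protein gene, was on none. Lists of glycolysis, cytoskeleton, photosynthesis, membrane transport and transcription factor genes, with 8, 4, 2, 2 and 9 eligible models, had no member, and the histone list had no eligible model.

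Levels were very uneven over the first places and closer together after them. TPM here is UMIs per 1000000 UMIs of a cell, with no division by length, because CEL-seq2 counts each molecule at its 3′ end. GRMZM2G028910 had 20338 TPM in the lowest, 308240 in the median and 687690 in the highest cell of the pre-meiotic pool. In the bHLH pool these values were 47853, 217344 and 377325 TPM. It was the most abundant gene model in 95 of 96 pre-meiotic cells and in 96 of 96 bHLH cells, so its lead did not rest on a few cells. Rows that are not gene models were left out of this ranking. GRMZM5G806488 ran from 9253 TPM through a median of 83472 to 326827 TPM in the pre-meiotic pool, and from 33688 through 76110 to 301127 TPM in the bHLH pool. It led in the remaining pre-meiotic cell, and was first or second in 95 pre-meiotic and 96 bHLH cells. The next in order, GRMZM2G049211 and GRMZM2G427444, had means of 18985 and 14566 TPM in the pre-meiotic pool and of 20228 and 21011 TPM in the bHLH pool. The median member had 1326 TPM in the first pool and 1898 in the second. Between the highest and the lowest member, mean levels spanned 807-fold and 415-fold.

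**Figure D1:**
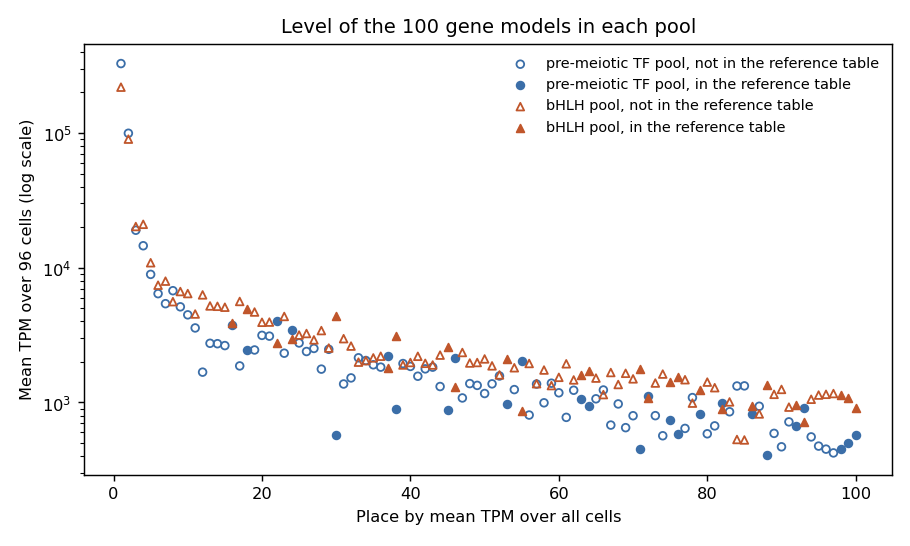
Mean level over the 96 cells of each pool (TPM, log scale) against the place of each of the 100 gene models by mean level over all cells; circles are the pre-meiotic pool, triangles the bHLH pool, and filled symbols are models listed in the reference table. The first 2 models stand far above the others in both pools, and most filled symbols lie in the right part of the plot.

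The 100 models took more than 50% of the UMIs in most cells. Their summed share had a median of 64.4% in the pre-meiotic pool, with quartiles of 52.9% and 74.5% and a range of 10.7% to 91.7%. In the bHLH pool the median was 58.2%, with quartiles of 53.3% and 63.7% and a range of 25.1% to 84.0%. The share exceeded 50% in 77 and in 85 of 96 cells. The ranges overlap over most of their length, and the pre-meiotic cells were more spread, with an SD of 16.7 percentage points against 8.96.

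GRMZM2G028910 had a lower share in the bHLH pool, whereas the members after the first 2 had a higher one. GRMZM2G028910 alone took a median of 30.8% of a pre-meiotic cell's UMIs (2.03% to 68.8%) and 21.7% of a bHLH cell's (4.79% to 37.7%). GRMZM5G806488 took 8.35% and 7.61%. The other 98 members together took 20.8% in the pre-meiotic pool (5.89% to 35.0%) and 27.5% in the bHLH pool (16.7% to 38.9%). Places 51 to 100 had medians of 4.50% and 6.64%. The members listed in the reference table took 3.42% and 4.85%. Shares of a cell sum to a whole, so a lower share of 1 very abundant model goes with higher shares of the rest. With GRMZM2G028910 taken out of both the sum and the total, the members' medians were 45.6% and 45.9%.

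**Figure D2:**
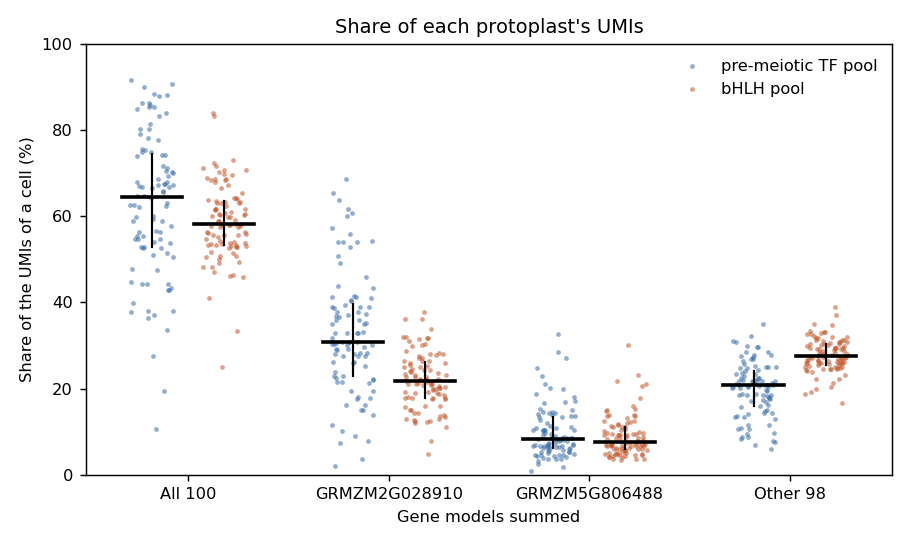
Share of each protoplast's UMIs (%) taken by all 100 models, by GRMZM2G028910, by GRMZM5G806488 and by the other 98; each point is 1 cell, the horizontal bar is the median and the vertical line spans the quartiles. The cells of the pre-meiotic pool spread further than those of the bHLH pool for all 100 models together, with medians of 64.4% and 58.2%.

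Cells at the ends of the range were looked at singly. Pre-meiotic protoplast 75 had the lowest share, 10.7%, with 20749 UMIs and 7772 genes, and 97 of the 100 members were still detected in it. Pre-meiotic protoplasts 10, 4 and 5 had the highest, 91.7%, 90.7% and 90.0%, with 920, 658 and 789 genes. In the bHLH pool protoplast 24 was lowest at 25.1% with 6613 genes. Protoplasts 14, 15 and 68 were highest there, at 84.0%, 83.2% and 73.0%, with 2507, 2904 and 6868 genes. The 3 highest pre-meiotic cells had few detected genes, whereas the highest bHLH cells differed in this. Over all 96 cells, the rank correlation of the share with the number of genes detected was -0.36 in the pre-meiotic pool and -0.0065 in the bHLH pool. Over the 22 pre-meiotic cells under 2000 genes the median share was 75.0%, against 62.5% in the other 74, and the part of low gene number in the pool difference was not tested further. In those 22 cells GRMZM2G028910 took a median of 40.2% against 30.3% in the other 74, and GRMZM5G806488 13.0% against 7.41%. The other 98 members took 15.0% against 21.6%.

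Detection was wider in the bHLH pool. There 93 members had a UMI in every cell, against 34 in the pre-meiotic pool. All 100 members were seen in 88 bHLH and 64 pre-meiotic cells, and the fewest seen in a cell were 98 and 74. Since the rule set a floor of 90% of cells, these counts describe only the space above it. The pre-meiotic pool had 10 cells under 5000 UMIs and the bHLH pool 1, and the part of depth in these counts was not tested.

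Most members had a higher level in the bHLH pool. The ratio used is log2(bHLH mean TPM + 10) minus log2(pre-meiotic mean TPM + 10). It was above 0 for 80 members and below 0 for 20, with a median of 0.52, and the median of all 1775 eligible models was 0.26. Over 2-fold higher in the bHLH pool were 25 members (25.0%), beside 12.7% of the eligible models. Over 2-fold lower were 3 members, beside 11.3% of the eligible models. With no minimum on level, these shares were 1.08% and 1.42% of all gene models. Among the 169 widely detected models, most of which are the members themselves, the shares were 20.1% and 4.73%. The other 69 of these had 13.0% over 2-fold higher and 7.25% over 2-fold lower, with 33 above 0 and a median of -0.02. Relative to the median eligible model, 16 members were over 2-fold higher, beside 6.76% of the eligible models, and 3 over 2-fold lower, beside 15.7%. Without GRMZM2G028910 in the denominator the medians were 0.29 for members and 0.11 for eligible models. The rule ranked by the mean over both pools, so a model high in 1 pool could become a member through that pool. MUB14, for example, had a pre-meiotic mean of 406 TPM and GRMZM2G331795 a bHLH mean of 527 TPM, under the 740 TPM of place 100. The counts past 2-fold are therefore descriptions that the choice of members bears on.

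The member with the highest ratio was GRMZM2G437100, which the table lists without an informative name. It had 0, 204 and 6090 TPM in the lowest, median and highest pre-meiotic cell and 293, 3795 and 14112 TPM in the bHLH pool. Its mean was 577 against 4379 TPM, a log2 ratio of 2.90, and its summed UMIs gave a ratio of 6.95 (exact interval 6.62 to 7.31). The 2 pools overlapped, since the highest pre-meiotic cell exceeded the bHLH median. GRMZM2G366532 followed with medians of 236 and 1554 TPM and a log2 ratio of 1.94. GRMZM2G046382, the twelfth by level, had medians of 1304 and 5828 TPM and a log2 ratio of 1.90. GRMZM2G123212 (1.79), MUB14 (GRMZM2G419891, 1.70) and GRMZM2G481525 (1.58) completed the 6 highest. Each of these had a UMI in 90 or more of the 96 cells of either pool.

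At the other end, GRMZM2G331795 and GRMZM2G158485 had log2 ratios of -1.32 and -1.30. GRMZM2G331795 had 53.1, 975 and 7092 TPM in the lowest, median and highest pre-meiotic cell and 0, 372 and 3729 TPM in the bHLH pool. These models are nearly the same measurement, as described further on. gst7 (GRMZM2G028556) had 202, 1704 and 7351 TPM in the pre-meiotic pool and 61.8, 512 and 3266 TPM in the bHLH pool. Its log2 ratio was -1.22, and its ratio of summed UMIs 0.379 (0.362 to 0.398). gst2 (GRMZM2G132093), GRMZM2G028910 and gst5 (GRMZM2G308687) came next at -0.71, -0.58 and -0.54. All 3 glutathione S-transferase genes among the members thus lay below 0, with overlapping cells. When cells under 2000 genes were left out, gst7 alone passed 2-fold lower, and the other 2 lay at -0.97 (GRMZM2G158485) and -0.96 (GRMZM2G331795).

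The other named members had smaller ratios or lay on the higher side. The ubiquitin genes differed among themselves, with MUB3 (GRMZM2G409726) at 1.12, MUB14 at 1.70 and MUB6 (GRMZM2G118637) at -0.06. The ubiquitin list had 4 eligible models, these 3 among them. MUB3 and MUB14 were the 2 over 2-fold higher, and none was over 2-fold lower. For this and the lists below, the shares of all 1775 eligible models were 12.7% over 2-fold higher and 11.3% over 2-fold lower. The counts of eligible models in each list include the members on it. MUB3 and MUB14 share a row of the reference table, so their names are uncertain. hsp18c had 0, 240 and 2669 TPM in the pre-meiotic pool and 0, 991 and 4196 TPM in the bHLH pool, a log2 ratio of 1.29. hsp101 (GRMZM2G360681) had a ratio of 0.86. Of the 16 eligible models of the heat shock list, 7 were over 2-fold higher and 2 over 2-fold lower, the lower count being near the background. Of the 17 eligible redox and detoxification models, 1 was over 2-fold higher and 7 over 2-fold lower, and trh2 (GRMZM2G144653) lay at -0.30. opr1 (GRMZM2G106303) lay at -0.20 and MPI (GRMZM2G028393) at 0.91, in a wound and defence list with 1 of 14 eligible models over 2-fold higher and 8 over 2-fold lower. RPL10 (GRMZM2G087233) had 0.51 and grp1 (GRMZM2G080603) -0.35.

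**Figure D3:**
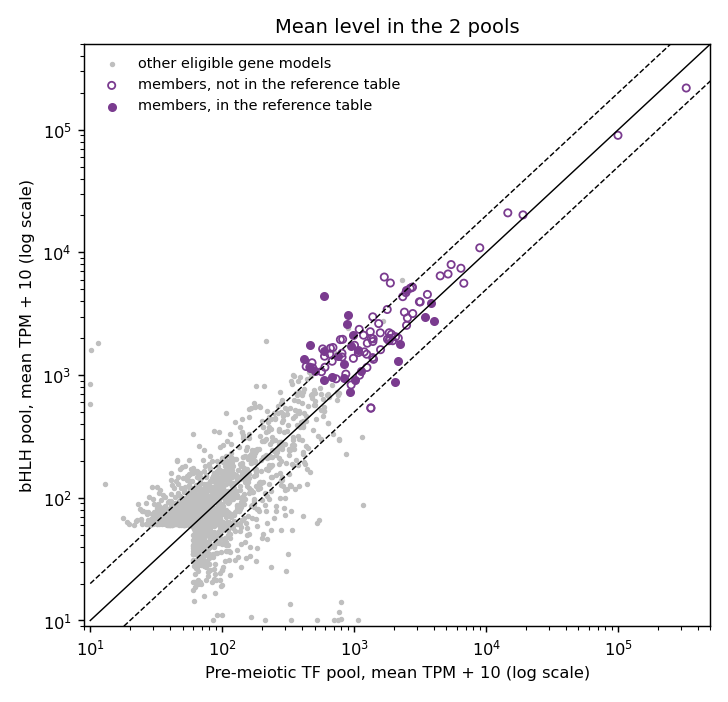
Mean level (TPM + 10, log scale) in the bHLH pool against that in the pre-meiotic pool; grey points are the other eligible gene models, purple circles the 100 members, filled where the reference table lists the model, the solid line marks equal levels and the dashed lines a 2-fold difference. Most members lie above the solid line, 25 of them above the upper dashed line and 3 below the lower one.

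Spread between cells was a measure the rule had not used. It is given as the coefficient of variation (CV, the SD over the mean of TPM), beside the CV that counting alone would give at these depths. The median CV of the members was 0.61 in the pre-meiotic pool (counting 0.256) and 0.40 in the bHLH pool (counting 0.165). For 93 of the 100 members the CV was higher in the pre-meiotic pool. Among cells with at least 2000 genes it was higher there for 89, with medians of 0.50 and 0.40. Across the 100 members, the CVs of the pools had a rank correlation of 0.81, a description over models that share cells and a denominator.

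The most abundant models stood furthest above counting. The CV of GRMZM2G028910 was 26.8 times that of counting in the pre-meiotic pool and 19.2 times in the bHLH pool. For GRMZM5G806488 the factors were 20.4 and 21.9, and for GRMZM2G049211 9.60 and 15.0. High levels leave little counting error, which by itself raises this factor. GRMZM2G427444, at place 4 by level, varied least in the bHLH pool, with a CV of 0.21, and had 0.48 in the pre-meiotic pool. GRMZM2G437100 had the largest CV of the pre-meiotic pool, 1.72, and 0.72 in the bHLH pool.

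Closest to counting were GRMZM2G444541 (1.24 and 2.04 times), GRMZM2G102843 (1.36 and 1.79), GRMZM2G055567 (1.57 and 1.76), GRMZM5G831399 (1.65 and 1.82) and GRMZM2G154667 (1.70 and 1.74). None of these 5 has an informative name. Members in the reference table had median CVs of 0.80 and 0.56, against 0.58 and 0.35 for members outside it, and their levels were lower. Of the named ones, hsp18c and hsp101 had CVs of 1.18 and 1.01 in the pre-meiotic pool and 0.76 and 0.56 in the bHLH pool. gst2 and gst7 were among the few members with a higher CV in the bHLH pool, at 0.96 and 0.94 against 0.73 and 0.75. The other 69 widely detected models, which are lower in level, had median CVs of 0.86 and 0.63.

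**Figure D4:**
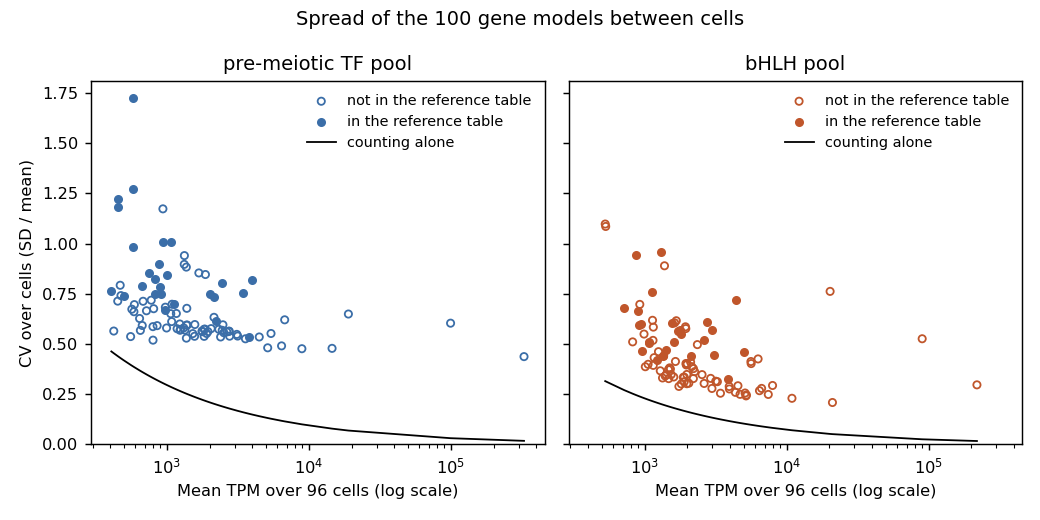
CV over the 96 cells of each pool against mean level (TPM, log scale) for the 100 models, filled where the reference table lists the model; the black line is the CV that counting alone would give. All points lie above the line in both pools, and the filled points lie mostly above the open ones of like level.

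Coexpression was read as the Spearman rank correlation (rho) of TPM over the 96 cells of 1 pool at a time. Cells of a pool share library chemistry and differ in depth, and all models of a cell share its denominator of TPM. These values are therefore descriptions. Over the 4950 pairs of members, the median rho was 0.22 in the pre-meiotic pool and 0.094 in the bHLH pool. A rho of at least 0.5 was reached by 1719 and 524 pairs. Both pools gave it for 486 pairs, which is 28.3% of the first set, 92.7% of the second and 9.82% of all pairs. The same was true of 0.0829% of pairs of eligible models and of 4.47% of pairs among the 169 widely detected models, most of which are members. Members were chosen for high level, and counting error pulls rho toward 0 in models of low level. The choice of members therefore bears on this contrast, and its part was not tested. The rank correlation of the rho values between the pools was 0.81 over all pairs. Pairs of a model in the reference table with one outside it had median rhos of -0.04 and -0.05, whereas pairs of 2 listed models had 0.46 and 0.30, and pairs of 2 unlisted ones 0.55 and 0.26.

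Groups of coexpressed members were formed in the pre-meiotic pool (average linkage on 1 minus rho, cut at 0.5) and then read in the bHLH pool, which had no part in forming them. The pre-meiotic pool gave 12 groups, 6 of them with at least 3 members, which held 93 of the 100. Formed in the bHLH pool instead, there were 26 groups, 13 of at least 3 members.

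Group 1 held 56 members, led by GRMZM2G427444 and GRMZM2G448174, with no informative name and 1 model in the reference table. Its median rho was 0.73 where it was formed and 0.39 in the bHLH pool, where 410 of its 1540 pairs reached 0.5. When groups were formed in the bHLH pool, its members fell into several groups. The level of group 1 had a rho with the UMI total of a cell of 0.52 in the pre-meiotic pool and 0.002 in the bHLH pool. Its median rhos were 0.69 and 0.39 in cells with at least 2000 genes, and 0.61 and 0.24 after thinning to 5000 UMIs. The part of depth in the pool difference was not tested further. The group took a median of 13.9% of UMIs in the pre-meiotic pool (1.69% to 31.3%) and 17.9% in the bHLH pool (8.09% to 31.3%). Of its 56 members, 6 were over 2-fold higher in the bHLH pool and none lower, beside 12.7% and 11.3% of the eligible models, so the higher count was near the background. The 5 members with the highest mean rho with all others, GRMZM2G427444, GRMZM2G474459, GRMZM2G062854, GRMZM5G800101 and GRMZM2G309193, belong to it, with mean rhos of 0.44 to 0.46 and 0.28 to 0.30.

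Group 2 held 14 members, 12 of them in the reference table: gst5, gst2, gst7, trh2, opr1, MUB3, MUB6 and RPL10, with 6 models without an informative name. Its median rho was 0.61 and, read in the bHLH pool, 0.37, with every pair above 0 there. When groups were formed in the bHLH pool, gst5, gst2, gst7, trh2, opr1, RPL10 and GRMZM2G027451 stayed together. MUB3 and MUB6 were then grouped with MUB14, and GRMZM2G056039 with hsp101 and hsp18c. By the lower of the values in the pools, opr1 and trh2 were the closest named pair, with rhos of 0.80 and 0.74, while gst5 and gst7 had a higher rho in the pre-meiotic pool (0.83) and 0.57 in the bHLH pool. opr1 and gst2 had 0.74 and 0.68, and gst5 and trh2 0.80 and 0.64. The group took a median of 1.99% of UMIs in each pool. Of its 14 members, 2 were over 2-fold higher in the bHLH pool (MUB3 and GRMZM2G150367) and 1 lower (gst7). The shares of the eligible models were 12.7% and 11.3%, so both counts were near the background.

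Group 3 held 10 members, 8 of them in the table: hsp101, hsp18c and 8 models without an informative name, GRMZM2G046382, GRMZM2G481525, GRMZM2G306679, GRMZM2G123212, GRMZM2G069651, GRMZM2G097135, GRMZM2G366532 and GRMZM2G479243. Its median rho was 0.58 and, in the bHLH pool, 0.57, with 34 of 45 pairs at 0.5 or more there. hsp18c had its closest partner in GRMZM2G306679, with a rho of 0.77 in the bHLH pool. The group's share of UMIs had a median of 0.98% in the pre-meiotic pool (0.134% to 4.72%) and 3.00% in the bHLH pool (0.706% to 5.83%), with overlapping cells. Of its members 8 were over 2-fold higher in the bHLH pool, all but hsp101 and GRMZM2G097135, beside 12.7% of the eligible models and 20.1% of the widely detected ones. The choice of members by mean level over both pools bears on this count.

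Group 4 held 7 models outside the table, led by GRMZM2G385622, with median rhos of 0.91 and 0.89. It took 0.46% and 1.06% of UMIs, and 6 of the 7 were over 2-fold higher in the bHLH pool, beside 12.7% of the eligible models. These 6 are close to 1 measurement, as described further on, and the choice of members by mean level over both pools bears on their count. Relative to the median eligible model, GRMZM2G385622, GRMZM2G448295 and GRMZM5G842433 lay under 2-fold, at 0.85, 0.996 and 0.98. On that measure 6.76% of the eligible models were over 2-fold higher. Without GRMZM2G028910 in the denominator, GRMZM2G385622 and GRMZM2G448295 lay at 0.84 and 0.97. Group 5 was made of the first 3 members, with 0.65 and 0.49. Within it GRMZM5G806488 and GRMZM2G049211 had rhos of 0.81 and 0.87. Group 6 held MPI, grp1 and GRMZM2G075315, with 0.63 and 0.34, and MPI and GRMZM2G075315 were its closest pair (0.81 and 0.53).

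**Figure D5:**
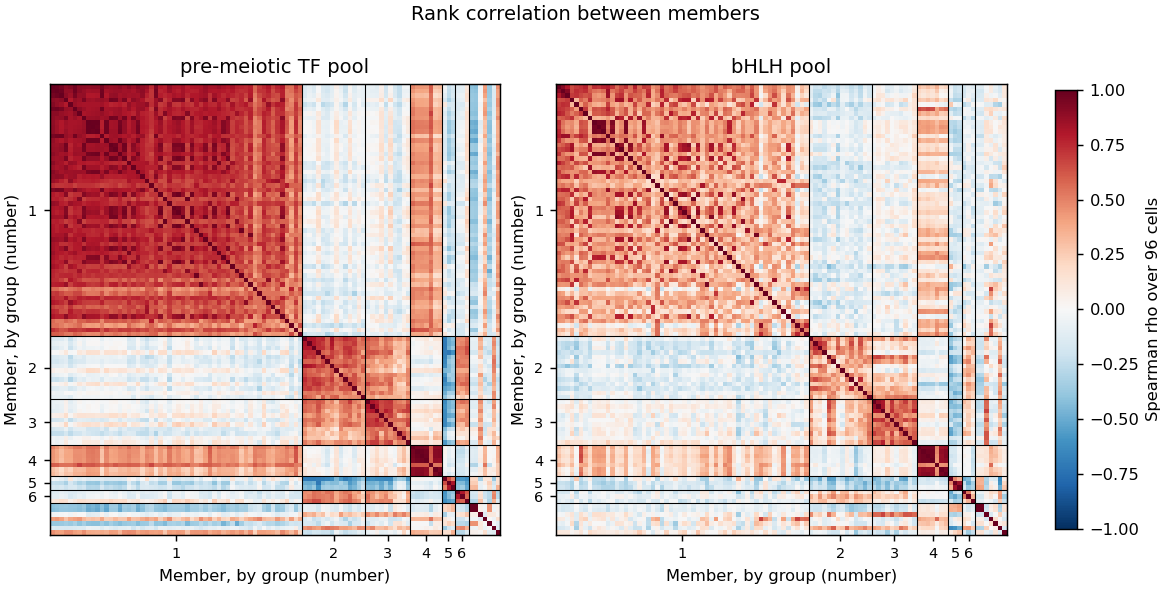
Spearman rho between all pairs of the 100 models over the 96 cells of the pre-meiotic pool (left) and the bHLH pool (right); both axes list the models by the groups formed in the pre-meiotic pool, and lines separate the groups. Group 1, with 56 models, is the large red block with a median rho of 0.73 on the left and 0.39 on the right, and groups 3 and 4 are as red on the right as on the left.

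The summed levels of some groups ran against each other. Groups 5 and 2 had rhos of -0.79 in the pre-meiotic pool and -0.59 in the bHLH pool, and groups 5 and 3 had -0.69 and -0.58. The lowest pairs in both pools were those of GRMZM2G028910 with GRMZM2G056039 (-0.67 and -0.55), MUB3 (-0.65 and -0.52), trh2 (-0.70 and -0.50) and MPI (-0.59 and -0.49). TPM shares 1 total per cell, so a higher share of the first 3 members, with medians of 43.4% and 32.3%, goes with lower TPM of the rest by construction. With these 3 taken out of the denominator, groups 2 and 3 had rhos of 0.39 and 0.22, in place of 0.66 and 0.44. Groups 1 and 2 then had -0.57 and -0.63, in place of -0.10 and -0.27. Group 1, with medians of 13.9% and 17.9% of all UMIs, is itself a large part of the reduced total. Part of its negative values may therefore again be set by the denominator. Within groups, the same step left the median rho of group 3 at 0.45 and 0.46 and that of group 2 at 0.40 and 0.28.

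Gene models outside the members were compared with the groups as well. Used were eligible models outside the members with a UMI in each pool, 1666 in all. The 13 of them on the heat shock list had a median rho with group 3 of 0.56 and 0.49, beside 0.24 and 0.12 for all 1666. Of the 13, 5 reached 0.5 in both pools, beside 13 of the 1666. These were Hsp70, hsp18f, hsp22 (0.75 and 0.54), hsp70-4 (0.52 and 0.60) and hsp18a (0.60 and 0.66). All but hsp18a were widely detected models that the rule left out by name, and the part of level in these values was not tested. Without the first 3 members in the denominator the medians were 0.40 and 0.37, beside 0.05 and 0.05, and 3 of the 13 reached 0.5 in both pools, beside 6 of the 1666. The closest models were Hsp70 (GRMZM2G310431), a chaperone gene, at 0.80 and 0.71, and hsp18f (GRMZM2G083810) at 0.71 and 0.74, both left out by the rule. For group 2, the closest was opr2 (GRMZM2G000236), also left out by the rule, at 0.80 and 0.81, and gst31 (GRMZM2G475059) had 0.77 and 0.61. The 13 redox and detoxification models outside the members had medians of 0.46 and 0.25 with group 2, beside 0.28 and 0.13 for all 1666. Other lists had like values with group 2, with 0.56 and 0.23 for 8 glycolysis models and 0.44 and 0.36 for the 13 heat shock models. Without the first 3 members in the denominator, the redox list had 0.29 and 0.28 with group 2, the glycolysis list 0.42 and 0.17 and the heat shock list 0.23 and 0.23. With group 1 the heat shock models had medians of 0.02 and -0.04, beside 0.08 and -0.04 for all 1666. Without the first 3 members in the denominator these were -0.19 and -0.27, beside -0.03 and -0.10. Other lists had like values with group 1 there, with -0.20 and -0.18 for the redox list and -0.26 and -0.14 for the glycolysis list.

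Some members were close to the same measurement. For a pair of models, the split of their UMIs across cells was compared with the split that independent counting would give, where a value of 1 is that of counting. A value under 0.5 in both pools was found for 24 of the 4950 pairs of members (0.485%), beside 0.254% of the pairs of widely detected models. These pairs joined 22 models into 7 sets, none of them in the reference table, so that 85 members remain when each set counts once. GRMZM2G158485 and GRMZM2G331795 had the same number of UMIs in 36 of 96 pre-meiotic and 44 of 96 bHLH cells, never differed by more than 5 UMIs, and summed to 3203 and 3183 UMIs in the pre-meiotic pool. Their values were 0.033 and 0.051. GRMZM5G800980 and GRMZM2G304947 had 0.076 and 0.106. GRMZM2G383052, GRMZM2G450705, GRMZM5G800101, GRMZM2G405519 and GRMZM5G844628 formed a set of 5, and all of group 4 but GRMZM2G055567 a set of 6. Counts of models in these sets are uncertain, because reads that fit several near-identical copies may be divided among them, and whether they share reads was not tested. Counting each set once, 20 of 85 members were over 2-fold higher in the bHLH pool and 2 lower, and 351 pairs reached a rho of 0.5 in both pools.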

How the data were processed

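Polyadenylated RNA of single protoplasts was counted with CEL-seq2, per the labels' protocols. The submitters' processing notes name HISAT2, SAMtools, UMI-tools and the maize build B73 RefGen_v3. The sources used here give neither their versions nor the annotation. The deposited values are a signal that the authors scaled per 1000000, but the totals of the cells had been recycled down the rows. Multiplying back gave whole UMIs for 1001042 of 1001042 values above 0 (within 0.001 UMI), and TPM was recomputed within each cell. The design had assumed TPM as deposited and was otherwise kept. Every cell had at least 500 genes and was kept, no doublet caller was run, and 0 pairs of cells were identical.

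Groups follow the pool named in each title. With 1 sample a pool there is no test. Ratios of summed UMIs have intervals from exact 95% binomial ones. The scripts used Python 3.11.15, NumPy 2.4.6, pandas 2.3.3 and SciPy 1.17.1, and were checked on simulated data. Alternatives are other pseudocounts (1 and 100), denominators, detection limits, cells thinned to 5000 UMIs, cells with at least 2000 genes, the deposited values as they stand and other correlation measures.

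The members and gene lists were chosen with earlier results of these data known. Named are the 12 most abundant members, the 6 highest and 6 lowest by ratio, the 5 nearest to and 5 furthest from counting, the closest and most opposed pairs, the 5 with the highest mean rho, those at the limit, and all with an informative name. Further members of groups 2, 3, 4 and 6 and of the near-identical sets are named to account for them. Lists used names in a reference table of another assembly (Zm-B73-REFERENCE-NAM-5.0), so no coordinates are given. The abbreviation cyp was not matched, because cytochrome P450 genes share it.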

Additional observations from a re-analysis of the deposited data

How the results depend on the processing

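No paired analysis was possible because protoplast numbers only count cells and each pool is 1 sample. Under 7 other rules of choice, 86 to 99 of the 100 members were chosen again, 86 with detection in 95% of cells, where 96 models were chosen. The median share of UMIs on members was 45.6% in the pre-meiotic pool and 45.9% in the bHLH pool without GRMZM2G028910, 65.9% and 58.7% after thinning to 5000 UMIs, and 64.1% and 60.3% over summed UMIs. It was 62.5% in pre-meiotic cells with at least 2000 genes, and the bHLH value there was within its counting interval. The count of members over 2-fold higher became 16 relative to the median eligible model and ran from 17 to 35 otherwise. The count over 2-fold lower became 1 with cells of at least 2000 genes. For 49 named members under 8 settings, 358 ratios stayed on their side of 2-fold, 22 dropped under it and 11 passed it. The sign changed in 22 of 391 ratios, 10 of them on the deposited values, and in none of a member past 2-fold.

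The median CV was 0.71 and 0.50 after thinning, 0.50 in pre-meiotic cells with at least 2000 genes, and 1.73 and 1.65 on the deposited values, whose divisors belong mostly to other cells. The median rho was 0.53 and 0.36 on the deposited values, and 0.13 in the pre-meiotic pool with 1 model per near-identical set, an alternative chosen after seeing the data. Pairs at 0.5 or more in both pools numbered 145 after thinning, 917 at a limit of 0.4 and 280 at 0.6. Apart from the changes that a setting makes by its own construction, the cause was not tested.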

Other observations

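The summed level of the PHAS rows, the loci whose transcripts are cut into phased small RNAs, went with the members' share. The share of all 100 members had rhos of -0.72 in the pre-meiotic pool and -0.57 in the bHLH pool with the summed PHAS TPM of a cell. These values share the cell's total, so part of them is fixed by the denominator. With the first 3 members taken out of it, group 1 had rhos of -0.47 and -0.37 with the PHAS level and group 4 had -0.41 and -0.39. Groups 2, 3 and 6 had positive values, 0.31 and 0.24, 0.29 and 0.17, and 0.38 and 0.32. In both pools groups 1 and 4 thus had negative values and groups 2, 3 and 6 positive ones. The groups are not independent, since groups 1 and 4 had rhos of 0.49 and 0.30 with each other on this denominator. Group 1 is also a large part of the reduced total, so part of its values may be set by it. What lies behind these signs was not tested.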
